A study of Mus musculus with 8 samples.

Results

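Chemokine receptors are cell surface proteins that steer leukocytes along gradients of small secreted proteins, the chemokines. The genes described here, in macrophages sorted from mouse hearts, are Ccr2, Cx3cr1, Ccr1, Cxcr4 and Ccrl2. They were taken by symbol, by a rule that used no measured value, although earlier results of these data were known at that time. Each symbol matched 1 gene, so that the group held 5 of the 36708 genes in the deposited table. RNA had been sequenced in 4 libraries from a bone marrow transplant (BMT) group of genotype LOY (loss of the Y chromosome) and 4 libraries from a BMT group of genotype control, and the label for treatment was control in both. Per the labels' protocols, left ventricles were digested with enzymes and 6000 cells per library were sorted that carried CD45.2, the macrophage protein CD64 and a red fluorescent protein but not the neutrophil protein Ly6G. The labels do not say how the Y chromosome was removed, what the fluorescent protein marked or how old the mice were. The comparison addresses whether macrophages of the heart express these receptors differently when the transplanted marrow is of the LOY genotype.

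Most chemokine receptors span the membrane several times and signal through inhibitory G proteins, and the activated receptor is then phosphorylated by receptor kinases and bound by arrestins. CCR2 binds Ccl2, Ccl7 and Ccl12 and draws classical monocytes out of the bone marrow into injured tissue. CX3CR1 binds the membrane-tethered chemokine Cx3cl1 and is carried by patrolling monocytes and many tissue macrophages. In the mouse heart, CCR2 separates macrophages that are replaced by blood monocytes from resident macrophages, which largely lack it. CCR1 responds to Ccl3, Ccl5, Ccl6 and Ccl9, CXCR4 responds to Cxcl12 and holds cells in the bone marrow, and CCRL2 is an atypical receptor that binds chemerin, the product of Rarres2, without signalling as the others do.

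Of the 5 genes, 4 lie on chromosome 9 in the GRCm38 build, and Cxcr4 lies on chromosome 1 (chr1:128588199-128592293, minus strand). Ccrl2 is at chr9:111054486-111057519 and Cx3cr1 at chr9:119901616-120069879, both on the minus strand. Ccr1 (chr9:123962124-123968692, minus strand) and Ccr2 (chr9:124101950-124113557, plus strand) belong to a cluster with Ccr1l1 and Ccr3. The coding sequence of Ccr1 was 76.32% identical to that of Ccr1l1, its paralog, and 70.01% identical to that of Ccr3, the eosinophil receptor. The longest identical run of Ccr1 and Ccr3 was 47 bases, and no window of 50 bases of Ccr1 was found in either paralog. The run is shown because a short read that fell inside it would belong equally to both genes, and capitals mark the identical bases, with 15 bases on either side in lower case. Both are read 5′ to 3′ on the coding strand, at chr9:123963596-123963672 (minus) for Ccr1 and chr9:124029461-124029537 (plus) for Ccr3.
Ccr1: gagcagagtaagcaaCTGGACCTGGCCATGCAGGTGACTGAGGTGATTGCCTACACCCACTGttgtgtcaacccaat
Ccr3: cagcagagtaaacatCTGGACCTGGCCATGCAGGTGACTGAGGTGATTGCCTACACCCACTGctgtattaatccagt
Ccr3 averaged under 1 TPM in these libraries. Ccr2 shared no window of 50 bases with Ccr1, Ccr3, Cx3cr1, Ccrl2 or Cxcr4. Of the 5 genes, Cx3cr1 alone overlapped exons of another annotated gene: 1 of its transcripts shared 78 exon bases with Gm33858 on the opposite strand, and the cDNA kit does not mark strand.

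Expression was deposited as TPM, a transcript abundance that corrects for transcript length and sums to 1000000 in each library. The read depth of each library is therefore unknown and no counting interval is given. The libraries held 11396 to 12139 genes at or above 1 TPM. All 6 macrophage markers were above 1 TPM in mean level. Their summed level was 4724 to 5021 TPM in LOY libraries and 3724 to 4572 TPM in control libraries, without overlap. Single markers did not all go that way. LOY and control means were 1421 and 920 TPM for Csf1r and 859 and 666 TPM for Adgre1. Mertk was at 35.5 to 73.3 TPM in LOY and 12.1 to 32.1 TPM in control libraries, without overlap. The mean of Ptprc was also higher in LOY libraries, with overlap. Means of Cd68 were 1557 TPM in LOY and 1746 TPM in control libraries, and the mean of Fcgr1 was 481 TPM in both. Among single tested genes, 6.76% had LOY above control without overlap. Summed TPM of the Y genes Ddx3y, Eif2s3y, Kdm5d and Uty was 2.77, 46.4, 1.49 and 2.12 in LOY replicates 1 to 4, against 104, 95.2, 80.8 and 109 in control replicates 1 to 4, so LOY replicate 2 kept Y transcripts that the other LOY libraries largely lacked. LOY replicate 1 and control replicate 1 also stood apart and had the lowest weights of the 8 libraries when limma estimated them (0.371 and 0.455). The labels do not tie the replicates to separate mice, so p-values reflect only the variation from sample to sample, part of which could be technical.

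None of the 5 receptor transcripts differed between LOY and control macrophages beyond the spread between libraries. Ccr2 and Cx3cr1 were abundant in both groups, at nearly equal means, and Ccrl2 and Ccr1 were several times less abundant than either. Cxcr4 was the least abundant and had the highest fold change, 1.32 (95% interval 0.910 to 1.90), which also did not pass. By limma with Benjamini-Hochberg adjustment over 11725 tested genes, 0 of the 5 passed an adjusted p of 0.05. The background was the same: 0 of 11725 genes passed (0.0%), while 2667 genes (22.7%) had an unadjusted p under 0.05, a level that 0 of the 5 receptors reached. The Y genes did not pass either, at log2 fold changes of -4.28 (Eif2s3y) to -1.75 (Kdm5d) and a limma adjusted p of 0.179 each. LOY replicate 2 kept Y transcripts, and without that library 5 genes passed, all lower in LOY libraries. The SD of log2(TPM + 1) within groups was 0.589 (Kdm5d) to 1.42 (Eif2s3y), against 0.224 to 0.671 for the receptors. Failing this threshold is no sign of equal levels, but the Y genes do not show how large a receptor difference would pass. The groups overlapped for all 5 receptors, against no overlap for 9.37% of tested genes (6.76% with LOY above control and 2.61% with LOY below it). In this bulk RNA, fewer cells of a type and less RNA per cell cannot be told apart.

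**Figure D1:**
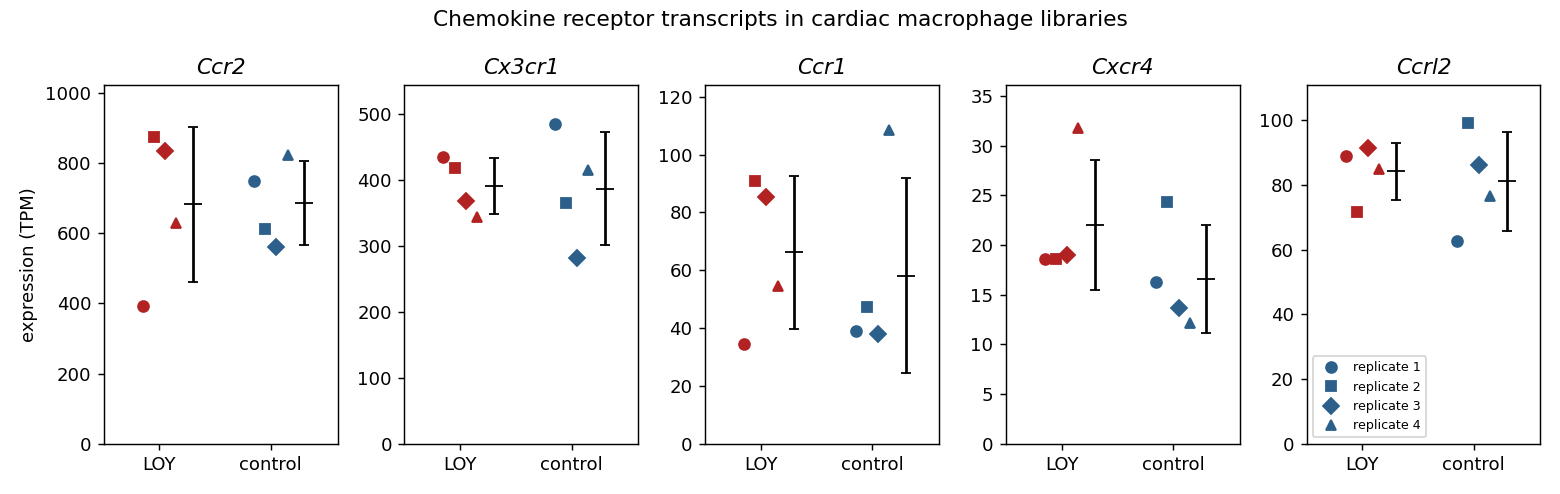
Expression in TPM (vertical axes, linear from 0) of the 5 receptor genes in the 4 LOY libraries (red, left) and the 4 control libraries (blue, right). Symbols are replicates, and bars give the mean ± SD. The groups overlap in each panel, LOY replicate 1 is lowest for Ccr2, and single libraries lie far above their group for Ccr1 (control replicate 4, 109 TPM) and Cxcr4 (LOY replicate 4, 31.8 TPM).

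Ccr2, the receptor for monocyte chemoattractants, was read at 391, 874, 835 and 630.1 TPM in LOY replicates 1 to 4, against 749, 613, 560.0 and 823 TPM in control replicates 1 to 4. LOY libraries held both the lowest and the highest values, and the control libraries lay inside that range. The means were 683 ± 222 TPM in LOY and 686 ± 121 TPM in control libraries (SD, n = 4 each), a log2 fold change of -0.06 (SE 0.25, 95% interval -0.60 to 0.49, limma adjusted p = 0.900). An exact two-sided permutation test over the 70 assignments of libraries gave p = 0.943. The interval thus spans a fold of 0.658 to 1.40 for the group labelled LOY over control. Its sign turned without LOY replicate 1, to 0.19 on the log2 scale (limma adjusted p = 0.484), and without control replicate 4, to 0.03. Without LOY replicate 2 it was -0.20 (adjusted p = 0.685), and without control replicate 1 it was -0.01. Ccr2 ranked between position 131 and position 309 among the genes of a library.

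Cx3cr1, the fractalkine receptor, was more even across libraries. Its levels were 436, 419, 368 and 345 TPM in LOY libraries, against 485, 366, 282 and 416 TPM in control libraries. The LOY values all lay within the control range. The means were 392 ± 42.6 TPM in LOY and 387 ± 85.3 TPM in control libraries (SD, n = 4 each), a log2 fold change of 0.04 (SE 0.17, interval -0.34 to 0.41, limma adjusted p = 0.906, exact permutation p = 0.829). Under a correction that removed the trend on transcript length and GC content from each library it was -0.29, with an unadjusted limma p of 0.0415 and an adjusted p of 0.310. Without LOY replicate 2 the log2 fold change of Cx3cr1 was 0.0034, without LOY replicate 1 it was -0.02 and without control replicate 1 it was 0.15.

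Ccr1, a receptor for inflammatory CC chemokines, was the most variable of the 5. Its levels were 34.4, 90.7, 85.2 and 54.5 TPM in LOY libraries, against 38.8, 47.2, 38.0 and 109 TPM in control libraries. In the control group 1 library, replicate 4, was far above the other 3, and in the LOY group replicates 2 and 3 were high and replicate 1 low. The means were 66.2 ± 26.5 TPM in LOY and 58.2 ± 33.9 TPM in control libraries (SD, n = 4 each), a log2 fold change of 0.23 (SE 0.37, interval -0.60 to 1.06, limma adjusted p = 0.725, exact permutation p = 0.686). Without control replicate 4 the fold change of Ccr1 was 0.57 on the log2 scale (adjusted p = 0.296), and without LOY replicate 2 it was 0.05. The SD of log2(TPM + 1) within groups was 0.671 for Ccr1, above that of 97.9% of the 7454 genes that averaged 10 TPM or more, whose median was 0.230. It was 0.417 for Ccr2, 0.391 for Cxcr4, 0.258 for Cx3cr1 and 0.224 for Ccrl2.

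Cxcr4, the receptor for the retention chemokine Cxcl12, had the lowest levels, at 18.6, 18.6, 19.0 and 31.8 TPM in LOY libraries, against 16.2, 24.3, 13.7 and 12.1 TPM in control libraries. LOY replicate 4 lay above all others, the remaining LOY libraries were nearly equal, and control replicate 2 exceeded those 3. The means were 22.0 ± 6.54 TPM in LOY and 16.6 ± 5.42 TPM in control libraries (SD, n = 4 each), a log2 fold change of 0.40 (SE 0.24, interval -0.14 to 0.93, limma adjusted p = 0.324, exact permutation p = 0.200). Cxcr4 was above 0 on this scale in every alternative setting, between 0.17 with quantile normalization and 0.59 without control replicate 2, and passed in none (adjusted p 0.286 to 0.689). With TPM as deposited, 68.2% of all tested genes were above 0 too, and Cxcr4 lay 0.24 above the median gene. That excess was between 0.036 with library weights and 0.49 with the length and GC trend removed.

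Ccrl2, which presents chemerin to neighbouring cells, was measured at 89.0, 71.7, 91.3 and 84.9 TPM in LOY libraries, against 62.8, 99.0, 86.3 and 76.6 TPM in control libraries. Of the LOY libraries, 3 lay close together, and the control libraries spread around them on both sides. The means were 84.2 ± 8.77 TPM in LOY and 81.2 ± 15.3 TPM in control libraries (SD, n = 4 each), a log2 fold change of 0.07 (SE 0.15, interval -0.27 to 0.40, limma adjusted p = 0.807, exact permutation p = 0.714). Without LOY replicate 2 it was 0.14, and without control replicate 1 it was -0.05. The log2 fold changes of the 5 receptors had a median of 0.07, beside 0.16 over all tested genes.

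The authors' deposited table of their own comparison listed log2 fold changes of 0.03 for Ccr2, 0.03 for Cx3cr1, 0.17 for Ccr1, 0.53 for Cxcr4 and 0.14 for Ccrl2. In the authors' deposited table the adjusted p was 0.960 for Ccr2, 0.946 for Cx3cr1, 0.832 for Ccr1, 0.285 for Cxcr4 and 0.796 for Ccrl2, so that 0 of 5 passed 0.05. The authors' deposited table held 634 of 16073 genes past that threshold (3.94%), 614 of them higher in LOY libraries.

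In level per transcript length, the order was Ccr2, Cx3cr1, Ccrl2, Ccr1 and Cxcr4. Ccr2 exceeded Cx3cr1 in 7 of 8 libraries by a geometric mean of 1.73-fold, but their ranges over libraries overlapped. Cx3cr1 exceeded Ccrl2 in 8 of 8 libraries, 4.70-fold, without overlap. Ccrl2 and Ccr1 were neighbours whose ranges overlapped, with Ccrl2 higher in 6 of 8 libraries, and Ccr1 exceeded Cxcr4 in 8 of 8 libraries by 3.08-fold. The ratio of Ccr2 to Cx3cr1 was 0.899, 2.09, 2.27 and 1.83 in LOY libraries, against 1.54, 1.68, 1.98 and 1.98 in control libraries. LOY replicate 1 was thus the library in which Cx3cr1 was above Ccr2.

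Of the 22 family genes examined, 7 averaged 1 TPM or more: the 5 genes above, Cxcr3, a receptor best known on activated T cells, and Ccr1l1. The other 15 genes averaged under 1 TPM, among them the lymph node homing receptor Ccr7 and the neutrophil receptor Cxcr2, and Cxcr1 was listed at 0 in all 8 libraries.

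**Figure D2:**
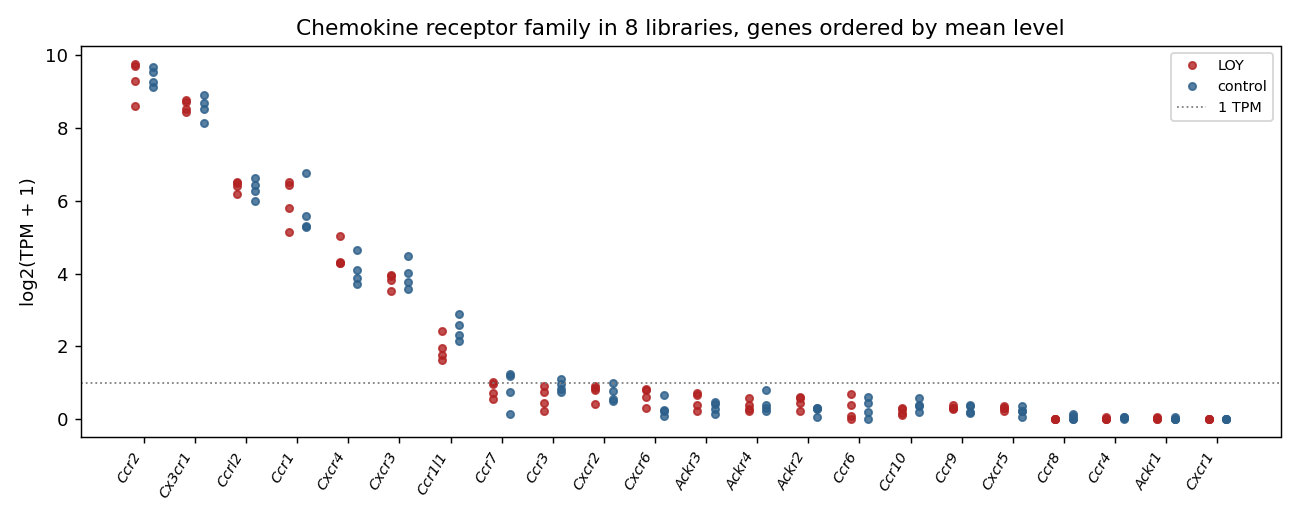
Levels of the 22 family genes on a log2(TPM + 1) axis, 1 point per library, LOY red and left, control blue and right, with genes ordered by mean level. The dotted line is 1 TPM, and 7 genes average above it.

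None of the 7 tested family genes passed the threshold, and 4 of the 7 fold changes were above 0, with a median log2 fold change of 0.04. Cxcr3 was at 10.5 to 14.6 TPM in LOY and 10.9 to 21.6 TPM in control libraries (log2 fold change -0.15, adjusted p = 0.671). Ccr1l1 had 4.40, 2.40, 2.87 and 2.07 TPM in LOY libraries, against 3.98, 6.43, 3.46 and 5.05 TPM in control libraries, a log2 fold change of -0.55 (SE 0.23, limma unadjusted p = 0.0386, adjusted p = 0.203). It was the 1 family gene with an unadjusted p under 0.05, against 3.45% of tested genes that were lower in LOY libraries at that level, and its groups overlapped through LOY replicate 1. With estimated library weights Ccr1l1 was the 1 of the 7 that passed, at -0.86 (limma adjusted p = 0.0122), a setting in which 26.5% of all tested genes passed, and 3.0% passed with a lower level in LOY libraries.

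**Figure D3:**
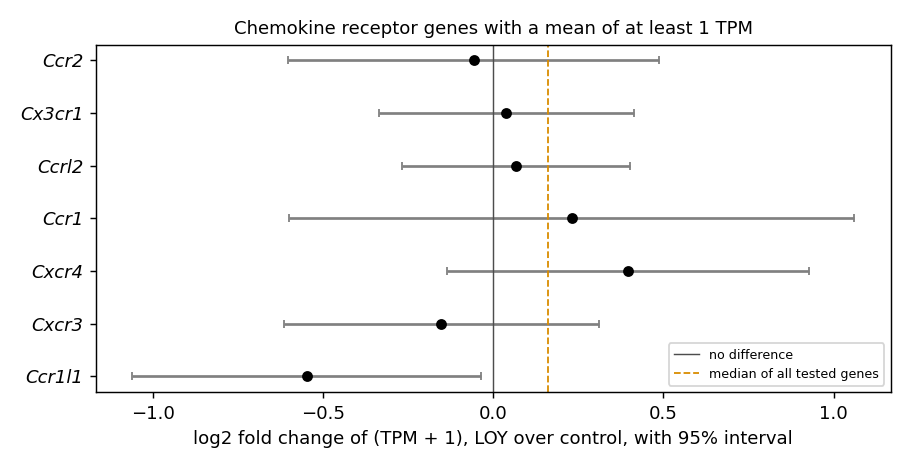
Log2 fold change of TPM + 1, LOY over control, with its 95% interval for the 7 family genes that averaged 1 TPM or more. The solid line is no difference and the dashed line the median of all tested genes (0.16); the intervals of 6 genes span 0 and that of Ccr1l1 lies below it.

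Of the 10 pairs of the 5 receptors, none varied together beyond the threshold after adjustment. Ccr2 and Ccr1 came closest, with Pearson's r = 0.79 (exact permutation p = 0.0155, Benjamini-Hochberg adjusted p = 0.155, n = 8) and Spearman's rho = 0.86 (exact permutation p = 0.0107, adjusted p = 0.107). Without LOY replicates 1 and 2, r was 0.75. Ccr2 and Cx3cr1 gave r = 0.17 (exact permutation adjusted p = 0.788) and rho = 0.24 (adjusted p = 0.832), and r was 0.70 without those same libraries, the farthest from the median of Ccr2.

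Levels of Ccr2 and Ccr1 were highest in the libraries with the most classical monocyte transcripts. The 5 markers of these precursor cells (Ly6c2, Plac8, Chil3, Vcan and Hp) summed to 96.5, 2117, 2349 and 695 TPM in LOY libraries, against 571, 546, 1197 and 2779 TPM in control libraries. Ly6c2, the surface antigen that defines such monocytes, was the most abundant of them, at 45.2, 1307, 1502 and 434 TPM in LOY and 276, 250.0, 659 and 1754 TPM in control libraries. LOY replicates 2 and 3 and control replicate 4 were rich in these transcripts, LOY replicate 1 was poor in them, and the groups overlapped widely. Markers of resident macrophages (Timd4, Lyve1, Folr2, Cd163, Mrc1 and Cbr2) summed to 1908, 806, 721 and 919 TPM in LOY and 1115, 1328, 782 and 762 TPM in control libraries, so that the library poorest in monocyte transcripts was the richest in these.

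Across the 8 libraries, the mean log2(TPM + 1) of the monocyte markers was correlated with Ccr2 at r = 0.87 and rho = 0.69 and with Ccr1 at r = 0.82 and rho = 0.83. Over the 12 relations computed, neither passed after adjustment (exact permutation adjusted p = 0.0549 for both values of r, 0.278 for rho of Ccr2 and 0.185 for rho of Ccr1). Without LOY replicate 1 and control replicate 4, r was 0.59 for Ccr2 and 0.78 for Ccr1. For the same markers r was -0.24 for Cx3cr1 (adjusted p = 0.672), -0.34 for Cxcr4 (0.581) and -0.18 for Ccrl2 (0.725), all by exact permutation. The resident markers gave r = -0.67 for Ccr2 (exact permutation adjusted p = 0.255), a value that was 0.02 without LOY replicate 1 and control replicate 2.

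With the monocyte marker score as a covariate, a setting chosen after the data were seen, the log2 fold change of Ccr2 was 0.01 (SE 0.14, limma adjusted p = 0.961) and that of Ccr1 was 0.34 (SE 0.21, limma adjusted p = 0.304). The SE of both was lower than without the covariate (0.25 for Ccr2 and 0.37 for Ccr1), and neither passed. The lower SE follows from the correlations above, in the same 8 libraries, and is no separate observation. The share of monocytes in each sorted sample was not measured, and its part in the receptor levels was not tested.

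**Figure D4:**
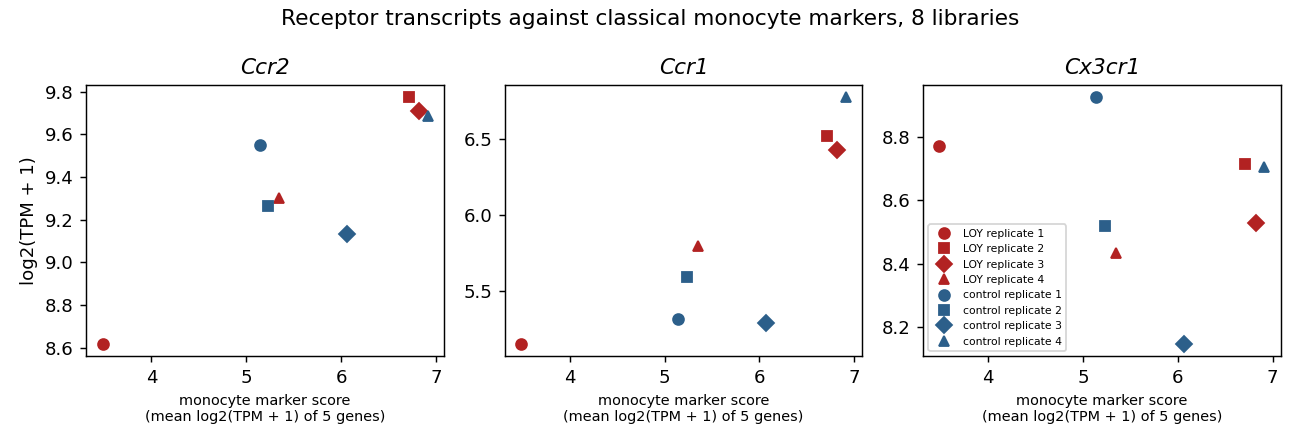
Level of Ccr2, Ccr1 and Cx3cr1 on the log2(TPM + 1) scale (vertical axes, each with its own range that does not start at 0) against the mean log2(TPM + 1) of 5 classical monocyte markers, 1 point per library. LOY replicates 2 and 3 and control replicate 4 lie at the right and at the top for Ccr2 and Ccr1, LOY replicate 1 lies at the left, and no such order is seen for Cx3cr1 (r = -0.24).

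Markers of other cells were low beside the macrophage markers. The neutrophil markers summed to 83.2 to 101 TPM in LOY and 44.0 to 87.8 TPM in control libraries, with Ly6g at no more than 0.197 TPM. Most of that sum was Csf3r, at 82.9 to 97.0 TPM in LOY and 41.9 to 72.2 TPM in control libraries. B cell markers summed to 39.7 to 47.1 TPM in LOY and 51.7 to 77.1 TPM in control libraries, without overlap. Most of that sum was Cd79b, at 35.1 to 41.0 TPM in LOY and 45.1 to 75.1 TPM in control libraries. Among single tested genes, 2.61% had LOY below control without overlap. T cell markers summed to 4.08 to 7.10 TPM in LOY and 4.81 to 8.46 TPM in control libraries. NK cell markers summed to 0.558 to 1.43 TPM in LOY and 0.284 to 0.553 TPM in control libraries. Each of these 4 genes averaged under 1 TPM, so the narrow gap between the groups is not read as a difference. Dendritic cell markers summed to 15.9 to 30.7 TPM in LOY and 5.16 to 33.0 TPM in control libraries. The sums were 63.1 to 153 TPM in LOY and 52.6 to 97.7 TPM in control libraries for cardiomyocyte markers, and 16.8 to 26.0 TPM in LOY and 13.1 to 17.1 TPM in control libraries for endothelial markers. Fibroblast markers summed to 14.2 to 26.7 TPM in LOY and 15.4 to 29.3 TPM in control libraries. No marker in the table was at 0 in all 8 libraries, and the part of these cells in the receptor levels was not tested.

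Among 7184 named genes outside the family that averaged 10 TPM or more, those whose levels over the 8 libraries were most like each receptor were listed by Pearson's r of log2(TPM + 1), as a description. For Ccr2 they were Itgb7, an integrin subunit gene (r = 0.97), Sdad1 (0.96) and the small GTPase gene Hras (0.95). For Cx3cr1 they were Ugp2, Rab40c and Med16, all at r = 0.95, and r was 0.81, 0.81 and 0.82 for them without the 2 libraries farthest from the median of Cx3cr1. For Ccr1 they were Adam8, a surface protease gene (0.99), the peroxisomal thiolase gene Acaa1a (0.98) and the Toll-like receptor gene Tlr1 (0.98), and Adam8 also gave 0.99 without control replicate 4 and LOY replicate 2. For Cxcr4 they were Pnrc1 (0.98), the nuclear envelope gene Emd (0.94) and Bpnt1 (0.93). For Ccrl2 they were Rsbn1l (0.91), the G protein signalling regulator Rgs1 (0.91) and the stress-induced transcription factor Atf3 (0.86). Without the 2 libraries farthest from the receptor's median, r was 0.87 to 0.92 for the genes of Ccr2 and 0.95 to 0.99 for those of Ccr1. It was 0.80 to 0.96 for the genes of Cxcr4 and 0.79 to 0.93 for those of Ccrl2. The highest of 7184 values over 8 libraries were taken, which by itself makes r high. The libraries and their scaling are shared by all genes, and no test was made of these values.

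The ligands of the 5 receptors were present in the same libraries, several of them at higher levels than their receptors. All 10 listed ligand genes were tested, 0 had an unadjusted p under 0.05, and the median log2 fold change was -0.02, beside 0.16 over all tested genes. The CCR2 ligand Ccl12 averaged 2013 ± 388 TPM in LOY and 1915 ± 459 TPM in control libraries (log2 fold change 0.08). Ccl7 averaged 749.6 ± 245 TPM in LOY and 763 ± 394 TPM in control libraries (0.04), and Ccl2 averaged 448 ± 159 TPM in LOY and 489 ± 222 TPM in control libraries (-0.09; SD, n = 4 each). All 3 CCR2 ligands were highest in control replicate 4, one of the libraries rich in monocyte transcripts.

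Of the CCR1 ligands, Ccl6 averaged 1314 ± 79.9 TPM in LOY and 1439 ± 80.1 TPM in control libraries (log2 fold change -0.13, SE 0.11, limma adjusted p = 0.471). Ccl9 averaged 437 ± 47.8 TPM in LOY and 495 ± 89.9 TPM in control libraries (-0.17, adjusted p = 0.511), Ccl3 averaged 304 ± 55.0 TPM in LOY and 279.8 ± 67.5 TPM in control libraries (0.14, adjusted p = 0.700), and Ccl5 averaged 83.2 ± 36.8 TPM in LOY and 90.6 ± 39.8 TPM in control libraries (-0.14, adjusted p = 0.838). The partners of the other receptors were scarce. Cx3cl1, the CX3CR1 ligand, averaged 1.51 ± 0.534 TPM in LOY and 0.900 ± 0.375 TPM in control libraries (0.39, SE 0.22, adjusted p = 0.296). Cxcl12, the CXCR4 ligand, averaged 4.51 ± 1.48 TPM in LOY and 4.11 ± 0.926 TPM in control libraries (0.08, adjusted p = 0.849), and Rarres2, which encodes chemerin, averaged 1.63 ± 0.407 TPM in LOY and 2.32 ± 0.428 TPM in control libraries (-0.34, SE 0.18, adjusted p = 0.275).

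Genes that act inside the cell after receptor activation were measured in 2 lists, and none passed over all genes. Of 17 signalling genes (G protein subunits, phospholipases, the gamma isoform of PI3 kinase with its partner, Rac and its activators), 5 were higher in LOY libraries at an unadjusted p under 0.05, against 19.3% of all tested genes, and 0 were lower. They were Pik3r5, Plcb3, Dock2, Gnaq and Gnai3, and 15 of 17 fold changes were above 0, against 68.2% of all genes. Pik3r5, the regulatory partner of PI3 kinase gamma, had 37.3, 67.3, 55.6 and 62.4 TPM in LOY libraries, against 37.7, 23.9, 17.9 and 37.9 TPM in control libraries. The groups met at LOY replicate 1, and the log2 fold change was 0.93 (SE 0.26, limma adjusted p = 0.179). Gnaq, a G protein alpha subunit gene, gave 0.74 (SE 0.24, adjusted p = 0.181), with 20.3 to 29.8 TPM in LOY and 10.9 to 24.1 TPM in control libraries, and Plcb3, a phospholipase C gene, gave 0.87 (SE 0.29, adjusted p = 0.181), with 28.0 to 35.8 TPM in LOY and 11.1 to 34.4 TPM in control libraries.

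Of 9 desensitization genes, 4 were higher at an unadjusted p under 0.05 (Grk3, Grk2, Arrb2 and Arrb1), against 19.3% of all tested genes, and 0 were lower, against 3.45%. Grk3, a kinase that phosphorylates activated receptors, had 44.3, 41.7, 36.3 and 43.9 TPM in LOY libraries, against 35.4, 25.1, 29.8 and 20.0 TPM in control libraries. Its groups did not overlap, which held for 6.76% of tested genes with LOY above control, and the log2 fold change was 0.60 (SE 0.17, limma adjusted p = 0.179). Grk2 gave 0.88 (SE 0.28, adjusted p = 0.181), with 82.1, 86.2, 87.5 and 154 TPM in LOY and 89.6, 38.0, 41.3 and 56.4 TPM in control libraries. The arrestin gene Arrb2 gave 0.60 (SE 0.23, adjusted p = 0.185), with 327 to 672 TPM in LOY and 206 to 344 TPM in control libraries.

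The values of both lists moved with the scaling and with single libraries. Their median log2 fold changes were 0.30 for signalling and 0.40 for desensitization, beside 0.16 over all genes. Under median-of-ratios scaling they were 0.12 and 0.22 beside 0.00 over all genes, and with the length and GC trend removed 0.08 and 0.14 beside -0.01. Without control replicate 1, the library in which Gnaq, Plcb3 and Grk2 were highest among controls, 14.9% of all tested genes passed with a higher level in LOY libraries, among them 5 of the 17 signalling genes (Dock2, Pik3cg, Pik3r5, Gnaq and Plcb3) and 4 of the 9 desensitization genes (Arrb1, Grk2, Grk3 and Grk6). The medians were then 0.43 and 0.60, beside 0.20 over all genes. Without control replicate 3 they were 0.12 and 0.22, beside 0.11 over all genes, and without LOY replicate 2 they were 0.21 and 0.43, beside 0.14. In both of these settings 0 genes of either list passed. Both lists were chosen with earlier results of these data known, and differences between the lists and the receptors were not tested.

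**Figure D5:**
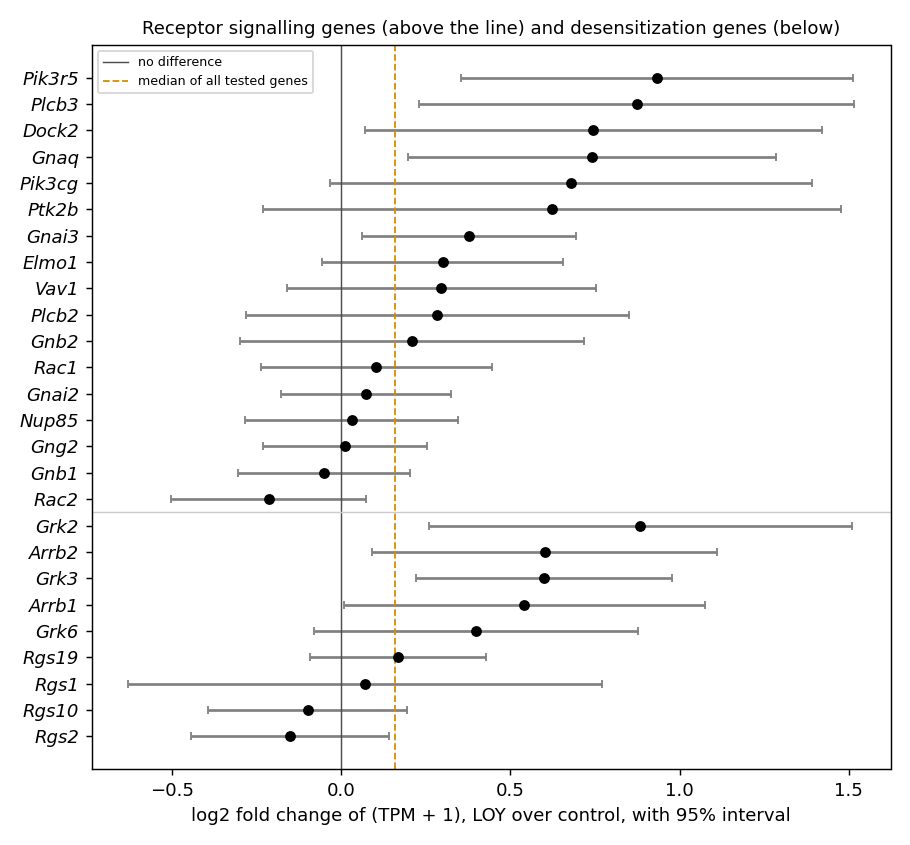
Log2 fold change of TPM + 1, LOY over control, with its 95% interval for 17 receptor signalling genes (above the grey line) and 9 desensitization genes (below it). The solid line is no difference and the dashed line the median of all tested genes (0.16); 5 intervals in the upper set and 4 in the lower lie above 0.

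Beside the family, 12 receptors for other chemoattractants were measured, and 0 passed. Of these, 3 were higher in LOY libraries at an unadjusted p under 0.05, against 19.3% of all tested genes, and the median log2 fold change was 0.08. That median was between -0.00035 (without control replicate 3) and 0.22 (without control replicate 4) when single libraries were left out. C5ar2, a second receptor for complement C5a, had 14.1, 23.0, 21.9 and 25.0 TPM in LOY libraries, against 12.8, 11.3, 5.08 and 13.4 TPM in control libraries, without overlap (log2 fold change 0.96, SE 0.29, limma adjusted p = 0.179). Ptafr, the receptor for platelet-activating factor, had 29.4 to 31.5 TPM in LOY and 16.9 to 28.5 TPM in control libraries, without overlap (0.40, SE 0.16, adjusted p = 0.186). S1pr1, a receptor for the lipid sphingosine-1-phosphate that guides exit from tissues, had 63.2, 24.3, 20.6 and 29.9 TPM in LOY libraries, against 23.7, 21.7, 11.3 and 14.8 TPM in control libraries (0.83, SE 0.34, adjusted p = 0.195). Without control replicate 1, 2 of the 12 passed: C5ar2 at 1.07 (adjusted p = 0.0413) and the chemerin receptor gene Cmklr1 at 0.75 (adjusted p = 0.0258). In that setting 14.9% of all tested genes passed with a higher level in LOY libraries, a share near that of the 12.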

How the data were processed

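The authors deposited TPM per gene and library, in columns headed TPM_sum, per the file headers, which do not name the tool. Columns named KO and WT, numbered 1 to 4, were read as LOY and control replicates. The submitters' processing notes name GRCm38 and mm10 as builds, and STAR 2.5.2b, Subread 1.5.2 with featureCounts, Trimmomatic 0.36 and bcl2fastq 2.17 as tools. The same deposited table gives the authors' own log2 fold changes with p-values. The authors' score, their fold change divided by its standard error, and their mean per gene were deposited there too and were not used.

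Of 11881 genes that averaged 1 TPM or more, 156 that repeated another gene's values were removed. With the trend and robust options, limma 3.58.1 (R 4.3.3) was fitted to log2(TPM + 1), LOY against control, two-sided, with Benjamini-Hochberg adjustment over 11725 genes and a threshold of 0.05. Fold changes are on that scale, which understates changes of low genes. Single values were compared by exact permutation, and ranks for Spearman's rho were made with scipy 1.17.1. The fit was also run on simulated data with independent noise for each gene. That run cannot show how the fit handles differences shared by many genes of a library. Coordinates and coding sequences came from GENCODE M21 on GRCm38.

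The receptors and gene lists were chosen with earlier results of these data known. Named genes were the 5 receptors, family genes and ligands of at least 1 TPM, the 3 genes of smallest p per list, the 3 most alike per receptor, and preset markers; others were chosen after their values were seen. Alternatives were other pseudocounts (0.1 and 5), no filter or a mean of at least 5 TPM, other scalings, other limma options, a replicate block and leaving out libraries. Equal replicate numbers did not pair the libraries. Some genes of the planned lists are not reported here and were left out of lists and sums; reads that match several receptor genes can make receptor values uncertain, and no source used here says how they were assigned.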

Additional observations from a re-analysis of the deposited data

Results flagged for a closer look

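Within each group of 4, a library was singled out where its gap to the nearest other made up most of the group's range. Chance gives this in about 1 of 20 groups, and 10 of the 120 groups checked met it. The groups checked were not independent, since some genes were picked for likeness to a receptor, so the rates were not compared.

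Among the receptors, Ccr1 stood at 109 TPM in control replicate 4, against 38.0 to 47.2 TPM in the other control libraries. Cxcr4 stood at 31.8 TPM in LOY replicate 4, against 18.6 to 19.0 TPM in the other LOY libraries. The same library was highest for the receptor kinase gene Grk2, at 154 TPM against 82.1 to 87.5 TPM in the other LOY libraries. It was also highest for Bpnt1, at 33.7 TPM against 25.2 to 26.5 TPM. Bpnt1 was picked because its levels followed those of Cxcr4 over these libraries, so its flag adds nothing separate. Gnaq was at 24.1 TPM in control replicate 1, against 10.9 to 11.9 TPM in the other control libraries.

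Among the markers, LOY replicate 1 was highest in the summed resident macrophage markers (1908 TPM, against 721 to 919 TPM) and in Timd4 (1.40 TPM, against 0.148 to 0.315 TPM). LOY replicate 3 was lowest in summed T cell markers (4.08 TPM, against 6.64 to 7.10 TPM), and control replicate 3 was highest in summed B cell markers (77.1 TPM, against 51.7 to 53.3 TPM). LOY replicate 2 held a summed Y gene level of 46.4 TPM, against 1.49 to 2.77 TPM in the other LOY libraries. What set these libraries apart was not tested.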

How the results depend on the processing

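No receptor passed the threshold under any of the 20 alternatives, with adjusted p-values of 0.417 to 0.983 for Ccr2, 0.310 to 0.994 for Cx3cr1, 0.296 to 0.960 for Ccr1, 0.286 to 0.689 for Cxcr4 and 0.542 to 0.999 for Ccrl2. Values turned sign with library weights (0.18) and with the monocyte score as a covariate (0.013) for Ccr2, with median-of-ratios scaling (-0.14) and the length and GC correction (-0.29) for Cx3cr1, and without control replicate 1 and LOY replicate 2 together for Ccr1 (-0.095). For Ccrl2 they did so with quantile normalization (-0.020), median-of-ratios scaling (-0.11), the length and GC correction (-0.00034) and library weights (-0.12). Leaving out single libraries gave log2 fold changes of -0.20 to 0.19 for Ccr2, -0.10 to 0.15 for Cx3cr1, 0.05 to 0.57 for Ccr1, 0.21 to 0.59 for Cxcr4 and -0.049 to 0.17 for Ccrl2. The count of genes past the threshold, 0 with all libraries weighted equally, was 0 to 1805 when single libraries were left out (1805 without control replicate 1, 5 without LOY replicate 2, 1 without control replicate 4), 3103 with library weights and 566 without control replicate 1 and LOY replicate 2 together; the cause was not tested. Scaling moved the median log2 fold change of all genes to 0.00 (median-of-ratios), -0.02 (quantile) and -0.01 (length and GC), against 0.16 as deposited. Under these, the genes higher and lower in LOY libraries at an unadjusted p under 0.05 were 1272 and 1293, 1142 and 1137, and 880 and 905, against 2262 and 405 as deposited. With the replicate number as a block, 0 genes passed and the fold change of Ccr2 was -0.06 (adjusted p = 0.908); deviations of same-numbered libraries were correlated at -0.15 to 0.04, so the numbers did not pair them. The unknown depth of each library limits these values, and 4 libraries per group left intervals as wide as 0.659 to 2.09-fold for Ccr1.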
